A study of Mus musculus with 8 samples.

Results

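The genes described here encode CD4, CD8 and the receptors and adaptor that work beside the T cell receptor: Cd4, Cd8a, Cd8b1, Cd5, Cd6, Cd2, Cd28 and Skap1. Of these 8 symbols, 7 were found among the 10825 genes of the count table by Ensembl ID, and Cd28 was not analysed here. The genes were chosen by symbol with earlier results of the DRQ and PBS comparison in view, in which Cd5, Cd4 and Skap1 had been named for their fold changes. The members' differences between groups are therefore given as descriptions, and no p-value is given for a member. The cells were labelled as dendritic cells (DCs) sorted from tumours of E0771, a mouse mammary carcinoma cell line, grown in wild-type mice. One group of mice received PBS and the other DRQ, named by the submitters as a CD74 inhibitor, with dosing from day 10 and tumours taken at 3 weeks. There were 4 samples per group. The labels used here give neither the sort gate, nor the mice's age, nor whether a sample was 1 mouse or a pool.

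CD4 and CD8 are the coreceptors of the T cell receptor. CD4 binds MHC class II and CD8 binds MHC class I, and both bring the kinase LCK to the receptor. CD5 and CD6 are related scavenger-receptor-type proteins that tune receptor signalling. CD2 is an adhesion receptor that binds CD48 in the mouse, CD28 is the costimulatory receptor for CD80 and CD86, and SKAP1 is an adaptor that links receptor signals to integrin adhesion. In the mouse, Cd4 and Cd8a are not specific to T cells: type 1 conventional DCs of lymphoid organs carry CD8α without CD8β, and some type 2 conventional and plasmacytoid DCs carry CD4. CD8β marks conventional CD8 T cells. NK cells also transcribe Cd2 and Skap1. CD5 and CD6 are mainly T cell proteins, with CD5 also on some B cells and DCs.

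RefSeq promoter sequences (GRCm38.p6) were held for 2 members, Cd5 and Cd8a, and not for Cd4, Cd8b1, Cd6, Cd2, Cd28 or Skap1. Both are shown because they were the only members with a sequence held, and no link to the fold changes was tested. Each is the 250 bases before the transcript start, 5′ to 3′ on the gene's strand. Capitals mark the ETS-type core AGGAAG or the E-box CANNTG, both searched on either strand; the marked matches did not overlap.
Cd5 promoter, chr19:10738975-10739224, minus strand: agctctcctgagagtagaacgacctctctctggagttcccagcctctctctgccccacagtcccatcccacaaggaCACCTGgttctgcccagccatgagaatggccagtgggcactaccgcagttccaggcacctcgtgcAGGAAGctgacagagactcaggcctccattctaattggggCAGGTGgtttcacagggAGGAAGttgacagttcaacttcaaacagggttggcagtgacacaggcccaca
Cd8a promoter, chr6:71373177-71373426, plus strand: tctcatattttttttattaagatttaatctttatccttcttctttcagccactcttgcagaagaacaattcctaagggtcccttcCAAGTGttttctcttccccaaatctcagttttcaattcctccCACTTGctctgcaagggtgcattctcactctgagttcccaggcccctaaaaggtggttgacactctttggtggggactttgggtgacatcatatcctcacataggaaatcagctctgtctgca
The Cd5 window held 2 ETS-type cores and 2 E-boxes, and the Cd8a window held 2 E-boxes and 0 ETS-type cores. Neither window held the RUNX core TGTGGT on either strand. Of 32851 promoter windows of the same length, 29.5% held an ETS-type core, 66.2% an E-box and 14.0% a RUNX core.

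Each library held 361792 to 543892 counts in all, and 3 counts, the limit set by a count of 0, corresponded to a level of 5.73 to 9.01 CPM, the count per 1e6 counts after TMM scaling. These are 3′-end tag levels, so gene length does not enter. DC transcripts were present. Cst3, an abundant DC gene, stood at 3039 ± 1054 CPM (PBS) and 4117 ± 160 CPM (DRQ, SD, n = 4). Flt3, a cytokine receptor of DCs, was at 12.9 to 57.0 CPM. Itgax, from the conventional DC list, stood at 208 ± 39.8 CPM (PBS) and 186 ± 30.5 CPM (DRQ, SD, n = 4), with a log2 fold change of -0.16 ± 0.19. The defining type 1 conventional DC genes Xcr1 and Clec9a were not analysed here. The 12 genes of the NK cell and cytotoxic list summed to 14042 to 19670 CPM in PBS and 12319 to 18347 CPM in DRQ, above the 6 conventional DC genes at 2128 to 4686 and 4403 to 4676 CPM. In these bulk libraries, more cells of a type and more RNA per cell cannot be told apart. PBS replicate 1 was the highest PBS library for Cd4, Cd8a, Cd5, Cd3d, Cd3e, Cd3g and Trac, so values without it are given where they move.

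Cd4 averaged higher, and Cd8a lower, in DRQ than in PBS, while Cd8b1 was level. Cd4 (ENSMUSG00000023274) stood at 97.4, 39.3, 30.0 and 36.1 CPM across PBS libraries 1 to 4 and at 141, 79.3, 84.7 and 94.7 CPM across DRQ libraries 1 to 4. The groups overlapped only through PBS replicate 1, which lay above 3 of the DRQ libraries. The means were 50.7 ± 31.4 CPM for PBS and 99.9 ± 28.0 CPM for DRQ (SD, n = 4), with a log2 fold change of 0.92 ± 0.33 (estimate ± SE). Without PBS replicate 1 the estimate was 1.50. The 3 lower PBS values rest on 14, 10 and 14 counts, and 10 counts carry an exact 95% Poisson interval of 4.80 to 18.4 counts.

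Cd8a (ENSMUSG00000053977), the chain found in both forms of CD8, stood at 93.6, 50.5, 51.1 and 62.0 CPM across PBS libraries 1 to 4. Across DRQ libraries 1 to 4 it stood at 63.2, 32.5, 24.2 and 44.4 CPM. The 3 DRQ libraries other than replicate 1 lay below every PBS library, and DRQ replicate 1 lay inside the PBS range. The means were 64.3 ± 20.2 and 41.1 ± 16.9 CPM (SD, n = 4), with a log2 fold change of -0.65 ± 0.34. It was -0.40 without PBS replicate 1 and -0.92 without DRQ replicate 1.

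Cd8b1 (ENSMUSG00000053044), the chain that pairs with CD8α on conventional CD8 T cells, stood at 57.3, 56.2, 18.0 and 54.2 CPM across PBS libraries 1 to 4. Across DRQ libraries 1 to 4 it stood at 46.9, 54.9, 60.5 and 27.1 CPM. The groups overlapped, with 1 low library in each. The means were 46.4 ± 19.0 and 47.3 ± 14.6 CPM (SD, n = 4), with a log2 fold change of -0.00087 ± 0.33. The low PBS value, in replicate 3, was 6 counts, with an exact 95% Poisson interval of 2.20 to 13.1 counts. Without that library the estimate was -0.25, and without DRQ replicate 4 it was 0.20.

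**Figure D1:**
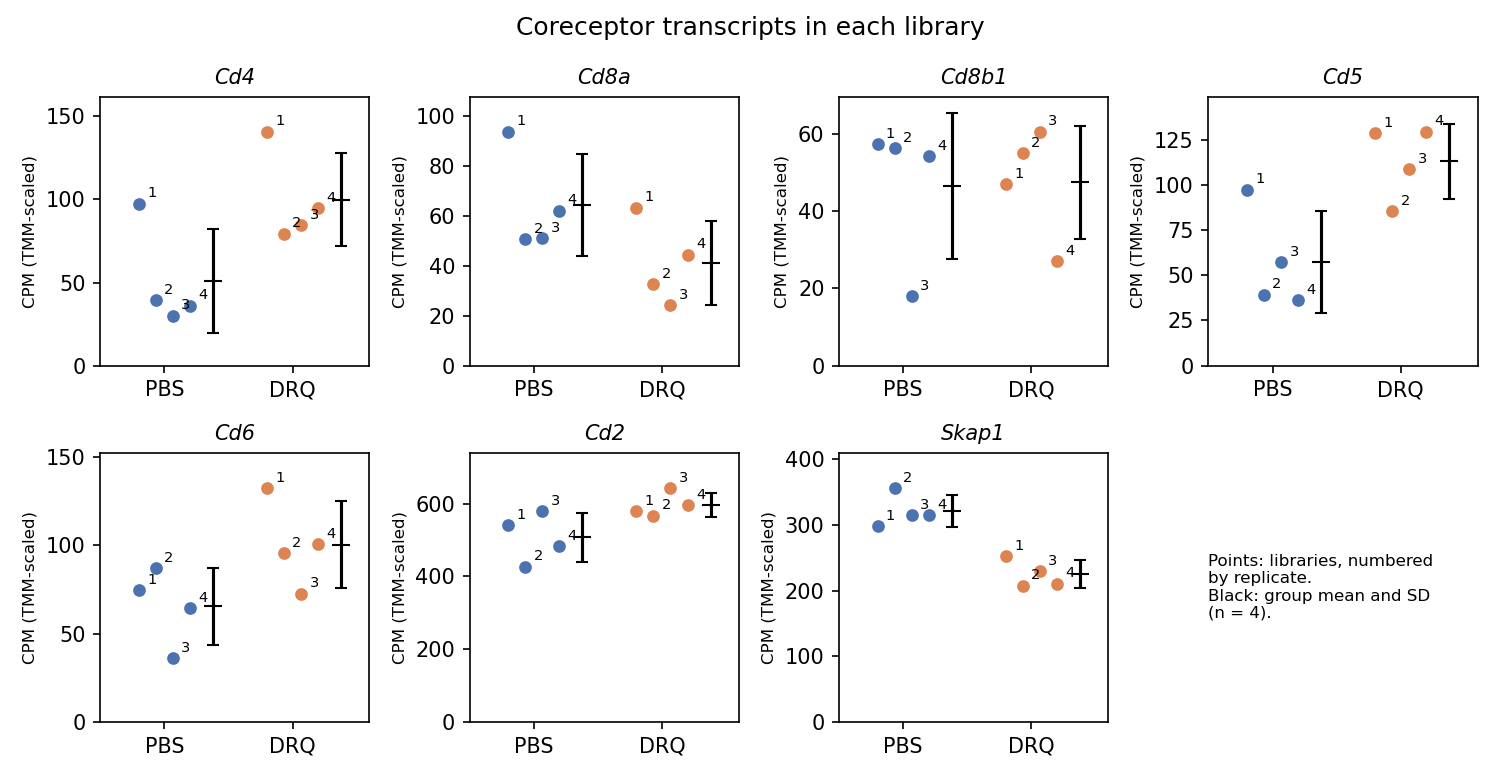
CPM (TMM-scaled, axes from 0) of the 7 coreceptor genes in each library, numbered by replicate, with the group mean and SD in black (n = 4). PBS replicate 1 is the highest PBS library for Cd4, at 97.4 CPM, and for Cd8a, at 93.6 CPM; Skap1 is the gene whose groups are fully apart.

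Cd4 and Cd8a were also set against each other within libraries, a measure that no scaling factor touches and that was chosen after the counts were seen. Cd4 made up 51.0%, 43.8%, 37.0% and 36.8% of the summed Cd4 and Cd8a counts across PBS libraries 1 to 4. Across DRQ libraries 1 to 4 it made up 69.0%, 70.9%, 77.8% and 68.1%. The lowest DRQ share exceeded the highest PBS share, and PBS replicate 1, apart in its levels, was the nearest to them. The means were 42.2 ± 6.71% and 71.4 ± 4.39% (SD, n = 4), a difference of 29.3 percentage points. Leaving out each library in turn gave 27.2 to 32.2 points. The totals were 27 to 100 counts, so the exact (Clopper-Pearson) 95% intervals were wide, 19.4 to 57.6% in PBS replicate 3 and 59.0 to 77.9% in DRQ replicate 1. Intervals here cover counting error only.

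The share of Cd8a in Cd8a plus Cd8b1 asks how the α chain stood against the β chain. It was 62.0%, 47.4%, 73.9% and 53.3% across PBS libraries 1 to 4 and 57.4%, 37.2%, 28.6% and 62.2% across DRQ libraries 1 to 4. The groups overlapped, and the means were 59.2 ± 11.5% and 46.3 ± 16.0% (SD, n = 4). Per library, Cd8b1 had 6 to 30 counts and Cd8a 10 to 49.

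**Figure D2:**
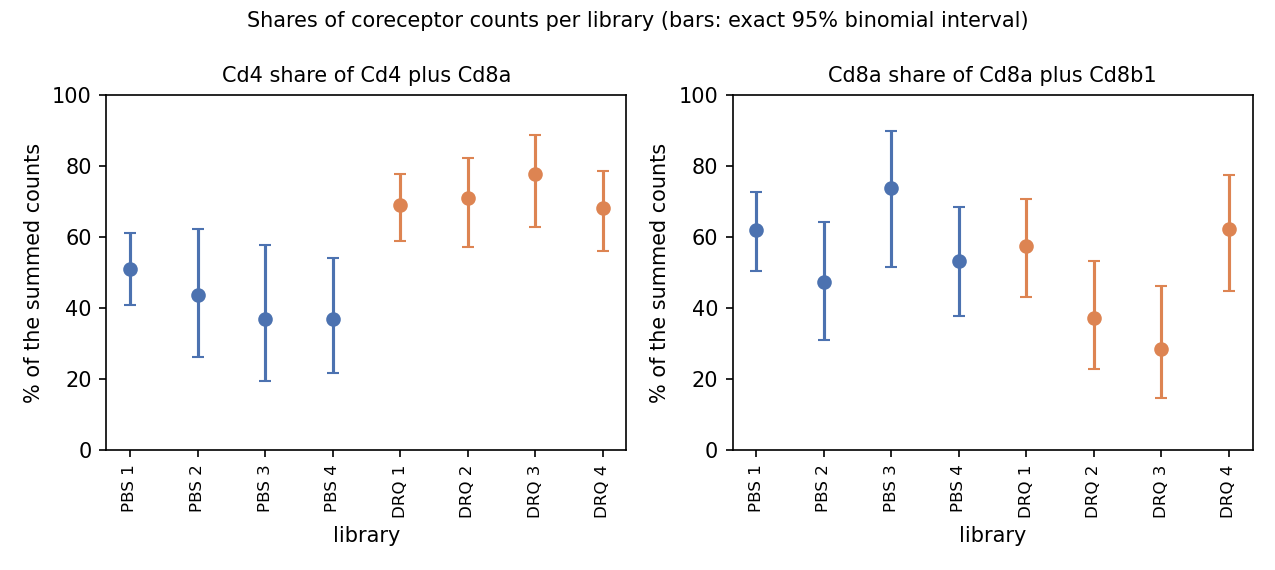
Share of Cd4 in Cd4 plus Cd8a counts (left) and of Cd8a in Cd8a plus Cd8b1 counts (right), in percent of the summed counts per library, with exact 95% binomial intervals. On the left the PBS libraries lie at 36.8 to 51.0% and the DRQ libraries at 68.1 to 77.8%; on the right the groups overlap.

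Cd5 and Cd6, neighbouring genes in the annotation used for names, both averaged higher in DRQ. Cd5 (ENSMUSG00000024669) stood at 97.4, 39.3, 57.1 and 36.1 CPM across PBS libraries 1 to 4 and at 128, 85.4, 109 and 129 CPM across DRQ libraries 1 to 4. The groups overlapped through PBS replicate 1 and DRQ replicate 2. The means were 57.5 ± 28.2 and 113 ± 20.7 CPM (SD, n = 4), with a log2 fold change of 0.94 ± 0.29, or 1.36 without PBS replicate 1. Cd6 (ENSMUSG00000024670) stood at 74.5, 87.0, 36.0 and 64.5 CPM across PBS libraries 1 to 4 and at 133, 95.6, 72.6 and 100 CPM across DRQ libraries 1 to 4. Here DRQ replicate 3 lay inside the PBS range and the other DRQ libraries above it. Its means were 65.5 ± 21.7 and 100 ± 24.7 CPM (SD, n = 4), with a log2 fold change of 0.60 ± 0.28. The share of Cd5 in Cd5 plus Cd6 counts overlapped between groups, at 31.1 to 61.3% in PBS and 47.2 to 60.0% in DRQ.

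Cd2 and Skap1 were the most abundant members and lay on opposite sides of 0. Cd2 (ENSMUSG00000027863) stood at 541, 427, 580 and 483 CPM across PBS libraries 1 to 4 and at 579, 567, 644 and 597 CPM across DRQ libraries 1 to 4. The groups overlapped through PBS replicate 3. The means were 507 ± 66.9 and 597 ± 33.5 CPM (SD, n = 4), with a log2 fold change of 0.23 ± 0.14. Skap1 (ENSMUSG00000057058) stood at 298, 357, 315 and 315 CPM across PBS libraries 1 to 4 and at 253, 207, 230 and 211 CPM across DRQ libraries 1 to 4. All 4 DRQ libraries lay below all 4 PBS libraries. Its means were 321 ± 24.9 and 225 ± 20.9 CPM (SD, n = 4), with a log2 fold change of -0.51 ± 0.16, and -0.56 to -0.46 with any 1 library left out. In the annotation used for names, a gene on the opposite strand overlaps Skap1, and the sources used here do not say if reads were counted by strand. Skap2, the related adaptor of myeloid and other cells, stood at 52.7 ± 12.1 and 65.7 ± 7.82 CPM (SD, n = 4; log2 fold change 0.31 ± 0.30).

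The estimate was above 0 for 4 of the 7 members and the median estimate was 0.23. For all 6156 tested genes it was above 0 in 48.4%, and the median was -0.01. The test over all genes was edgeR's quasi-likelihood (QL) test at a threshold of 0.05, with p adjusted by the Benjamini-Hochberg (BH) method. Of the 7 members 0 passed it, 0 passed with limma-voom, and 0 of the 5 to which DESeq2 gave an adjusted p passed there (none for Cd8a and Cd8b1), while 2 of all tested genes, or 0.0325%, passed with edgeR (0 to 15 genes with 1 library left out). With p unadjusted and the same threshold, 3 members were higher (Cd4, Cd5 and Cd6) and 1 was lower (Skap1), beside 3.98% of all genes higher, 3.28% lower and 7.26% in either direction. Groups did not overlap for 1 member, Skap1, beside 4.32% of all genes in either direction and 2.18% lower in DRQ. These counts describe genes picked with the contrast known and carry no weight as tests. Summed over the members, the level was 1051 to 1259 CPM in PBS and 1123 to 1344 CPM in DRQ.

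**Figure D3:**
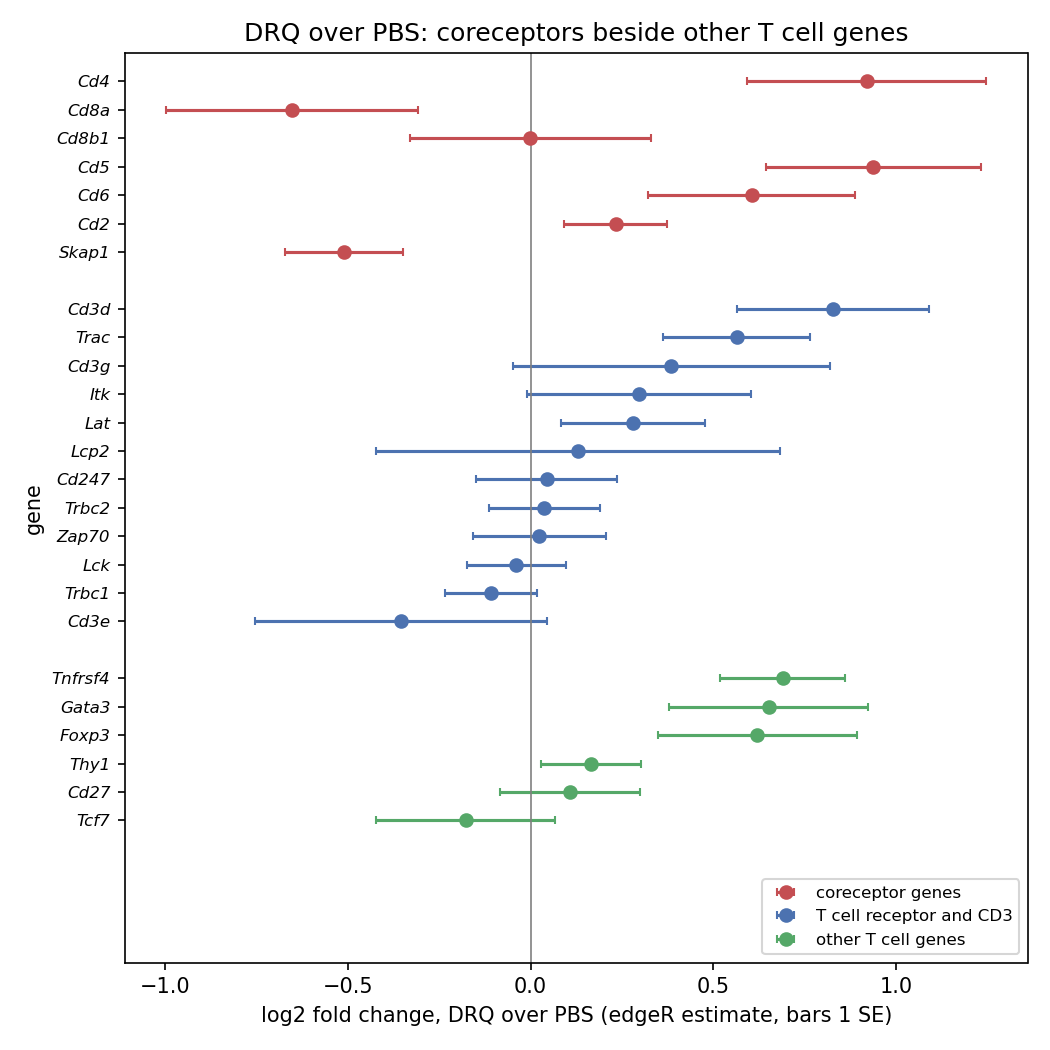
Log2 fold change of DRQ over PBS (edgeR estimate, bars 1 SE, n = 4 libraries per group) for the coreceptor genes, the T cell receptor and CD3 list and the tested genes of the other T cell list. Cd4, Cd5 and Cd6 lie at 0.92, 0.94 and 0.60 and Skap1 at -0.51. In the T cell receptor and CD3 list, Cd3d and Trac lie at 0.83 and 0.56, and Lck and Trbc1 at -0.04 and -0.11. None of the genes shown passed over all genes.

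Estimates for the chains and kinases that the coreceptors work with lay on both sides of 0, and each estimate below 0 was smaller in size than its SE. Of the 12 T cell receptor, CD3 and proximal signalling genes, all were tested, 9 lay above 0, the median being 0.09, and 0 passed with edgeR or limma-voom, nor did any of the 9 that DESeq2 adjusted (not Cd3e, Cd3g and Lcp2); unadjusted edgeR p-values under 0.05 numbered 2 on the higher side and 0 on the lower. Cd3d, the CD3 delta chain, stood at 113, 61.8, 69.1 and 49.1 CPM across PBS libraries 1 to 4 and at 133, 112, 116 and 168 CPM across DRQ libraries 1 to 4. PBS replicate 1 again lay inside the DRQ range. Cd3d had a log2 fold change of 0.83 ± 0.26, and Trac, the T cell receptor alpha constant gene, one of 0.56 ± 0.20 (edgeR QL, adjusted p = 0.333 and 0.458). Cd3e, the CD3 epsilon chain, had -0.35 ± 0.40, and Cd3g, the CD3 gamma chain, had 0.39 ± 0.43. Lck, the kinase that CD4 and CD8 carry, stood at 693 ± 74.6 and 675 ± 54.2 CPM (SD, n = 4, log2 fold change -0.04 ± 0.14). Without PBS replicate 1 the estimates were 1.14 for Cd3d, 0.73 for Trac, 1.02 for Cd3g, -0.15 for Cd3e and 0.03 for Lck.

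Set against the summed CD3 chains or the summed constant genes, Cd4 and Cd5 stayed higher, and Cd8a and Skap1 lower, on average in DRQ. The log2 ratio of Cd4 to the summed Cd3d, Cd3e and Cd3g level averaged -1.78 ± 0.61 in PBS and -1.21 ± 0.48 in DRQ (SD, n = 4), and the groups overlapped. The difference, 0.57, was 0.28 without PBS replicate 3 and 0.37 without DRQ replicate 1. For Cd8a the ratio averaged -1.32 ± 0.47 and -2.54 ± 0.56, and DRQ replicate 1 alone lay inside the PBS range. For Cd5 it averaged -1.55 ± 0.22 and -1.01 ± 0.28, and the groups overlapped. The constant genes Trac, Trbc1 and Trbc2 summed to 1974 ± 253 CPM for PBS and 1970 ± 45.9 CPM for DRQ (SD, n = 4). Most of this sum was Trbc1 and Trbc2, while Trac stood at 162 ± 43.2 and 242 ± 39.3 CPM. With the sum as denominator the differences, DRQ minus PBS, were 1.10 for Cd4, -0.70 for Cd8a and 1.07 for Cd5. Because the sum averaged level between groups, these differences lie near the CPM fold changes and do not set T cell content aside. Ratios to Cd3d or Trac alone were not computed. For Skap1 the difference was -1.05 against the CD3 chains and -0.52 against the constant genes, and for Cd6 it was 0.12 (-0.24 to 0.51 with 1 library left out) and 0.65. The sign turned with the denominator for Cd8b1, at -0.43 against the CD3 chains and 0.10 against the constant genes, and for Cd2, at -0.29 and 0.24. With 1 library left out, the Cd8b1 difference against the CD3 chains ran from -0.93 (without PBS replicate 3) to -0.01 (without DRQ replicate 4), and it was -0.06 without PBS replicate 2 and -0.18 without PBS replicate 4. Trbc1 and Trbc2 are closely related genes. How well reads were split between them was not tested, and both enter the ratios through the sum. Which cells gave the Trbc1, Trbc2 and Lck counts was not tested either.

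Ligands and partners of the members were mostly low or level. Of 23 symbols, 20 had a row and 15 were tested; 11 of these lay above 0, the median being 0.11, and 0 passed with edgeR or limma-voom, nor did any of the 11 that DESeq2 adjusted (not Cd244a, Grap2, Icos and Sh2d1a); unadjusted edgeR p-values under 0.05 numbered 1 on the higher side and 1 on the lower. Cd80 and Cd86, the CD28 ligands, were under the expression filter, at 2.81 to 26.6 CPM for Cd80 and 0 to 31.5 CPM for Cd86. Cd48, the mouse CD2 ligand, stood at 72.4 ± 32.3 and 99.1 ± 42.9 CPM (SD, n = 4; log2 fold change 0.43 ± 0.34). Ctla4, which competes with CD28 for its ligands, stood at 102 ± 10.4 and 154 ± 36.3 CPM (SD, n = 4), with a log2 fold change of 0.60 ± 0.23 (edgeR QL, adjusted p = 0.528). Pstpip1, which binds the CD2 tail, had -0.37 ± 0.18 (edgeR QL, adjusted p = 0.680).

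Other T cell genes included those of regulatory CD4 T cells. Of 14 symbols, 12 had a row and 6 were tested; 5 lay above 0, the median being 0.39, and 0 passed with edgeR, DESeq2 or limma-voom; unadjusted edgeR p-values under 0.05 numbered 3 on the higher side and 0 on the lower. Groups did not overlap for 3 of the 6, all higher in DRQ, where 2.14% of all genes were higher without overlap. Foxp3, the transcription factor of regulatory T cells, stood at 61.1, 56.2, 63.1 and 54.2 CPM across PBS libraries 1 to 4 and at 97.9, 114, 65.3 and 83.1 CPM across DRQ libraries 1 to 4 (log2 fold change 0.62 ± 0.27, edgeR QL, adjusted p = 0.639). The groups did not overlap, and PBS replicate 1 did not stand apart for Foxp3. Tnfrsf4, a costimulatory receptor of activated T cells, had 0.69 ± 0.17 and Gata3, a transcription factor of type 2 helper T cells, 0.65 ± 0.27 (edgeR QL, adjusted p = 0.136 and 0.587). The rest of those tested, Thy1, Cd27 and Tcf7, had 0.17 ± 0.14, 0.11 ± 0.19 and -0.18 ± 0.25, with overlap. Il2ra, under the expression filter, was level, at 17.1 ± 8.18 CPM for PBS and 16.5 ± 11.0 CPM for DRQ (SD, n = 4). Il7r, also under the filter, stood at 12.9 ± 11.7 and 13.4 ± 4.17 CPM.

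Markers of the cells that can carry CD4, CD8α, CD2 or CD5 were counted in the same libraries. Over the 8 lists of NK cells, conventional, type 1 and type 2 conventional and plasmacytoid DCs, B cells, monocytes and macrophages, and neutrophils, 1 gene passed with edgeR: Il1r2, a decoy receptor in the type 2 conventional DC list (log2 fold change 1.21 ± 0.20, edgeR QL, adjusted p = 0.00758). Without DRQ replicate 3 it did not pass (edgeR QL, adjusted p = 0.0709), and over the other alternatives its adjusted p ran from 0.000175 with DESeq2 to 0.0454 with limma-voom. Of the 11 tested NK and cytotoxic genes 2 lay above 0, the median being -0.13, and of the 5 tested conventional DC genes 4 did, the median being 0.57. Type 1 conventional DC genes, 6 of 9 with a row, summed to 1515 to 2454 CPM in PBS and 2002 to 2709 CPM in DRQ, mostly Irf8. The type 2 conventional DC list, 9 of 9, summed to 814 to 1037 and 881 to 1258 CPM. Its most abundant gene, Cd7, averaged 449 ± 70.2 CPM for PBS and 323 ± 18.5 CPM for DRQ (SD, n = 4). Cd7 was lower in DRQ without overlap (log2 fold change -0.48 ± 0.15, edgeR QL, adjusted p = 0.333). The sum thus mixes directions and is not read as a level of these cells. Which cells in the libraries gave the Cd7 counts was not tested. Mgl2, a C-type lectin of type 2 conventional DCs, stood at 26.7, 5.62, 42.1 and 33.6 CPM across PBS libraries 1 to 4 and at 163, 61.0, 89.5 and 59.9 CPM across DRQ libraries 1 to 4. The groups did not overlap, with a log2 fold change of 1.78 ± 0.41 that did not pass (edgeR QL, adjusted p = 0.127). Cd209a and Clec10a, lectins of the same cells, were under the expression filter and not tested; Clec10a was picked after its values were seen. Cd209a was at 5.73 to 15.0 CPM in PBS and 18.3 to 50.8 CPM in DRQ. Clec10a was at 3.00 to 15.5 and 21.3 to 62.9 CPM, with no overlap between groups for either gene. In the same list Sirpa, Itgam, Irf4 and Klf4 had -0.07 ± 0.44, 0.03 ± 0.24, 0.11 ± 0.44 and 0.33 ± 0.23, all with overlap. Of the list's 7 tested genes 5 lay above 0, the median being 0.11. Groups did not overlap for 2 higher (Mgl2 and Il1r2) and 1 lower (Cd7), beside 2.14% and 2.18% of all genes. Plasmacytoid DC genes, 6 of 8, summed to 556 to 1144 and 812 to 1015 CPM, mostly Bst2. Siglech, a defining gene of plasmacytoid DCs, was at 0 to 16.9 CPM and at 0 in PBS replicate 2 and DRQ replicate 2.

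In B cells, 2 of 6 symbols had a row and they summed to 198 to 308 CPM in PBS and 278 to 502 CPM in DRQ, nearly all Ighm, while Cd79b was at 0 to 17.2 CPM and at 0 in PBS replicates 2 and 3. Monocyte and macrophage genes, 7 of 9, summed to 333 to 736 and 334 to 1156 CPM. Neutrophil genes, 4 of 6, summed to 168 to 1564 and 69.2 to 390 CPM. Epithelial genes, 4 of 5, summed to 120 to 247 and 30.6 to 157 CPM, and 0 of the 2 tested passed. Krt8 averaged 155 ± 41.8 CPM for PBS and 73.6 ± 38.3 CPM for DRQ (SD, n = 4). It was lower in DRQ without overlap, beside 2.18% of all genes (log2 fold change -1.08 ± 0.33, edgeR QL, adjusted p = 0.333). Krt18 had -0.01 ± 1.04. The part of these cells in the members' values was not tested.

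Across the 8 libraries the members fell into no single pattern. Cd5 followed Cd3d closely, with Pearson's r of 0.97 and Spearman's rho of 1.0 on log2 CPM, and r of 0.93 after each group's mean was subtracted. Cd4 followed Cd5 over all libraries, with r of 0.91 and rho of 0.81, and r of 0.93 without the 2 libraries farthest from the Cd4 median. After subtracting group means r was 0.79. This fell to 0.24 once PBS replicate 1 was also left out, and to -0.16 without both PBS replicate 1 and DRQ replicate 1. Cd4 and Cd8a had r of -0.01 over all libraries but 0.82 within groups; the latter was 0.39 without PBS replicate 1 and DRQ replicate 1 together. Cd8a and Cd8b1 had r of -0.04, and 0.01 within groups. Skap1 and Cd5 had r of -0.78, but -0.24 after subtracting group means, and 0.19 once PBS replicate 1 was also left out. These are descriptions over 8 libraries that share the group difference, with no p-value.

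**Figure D4:**
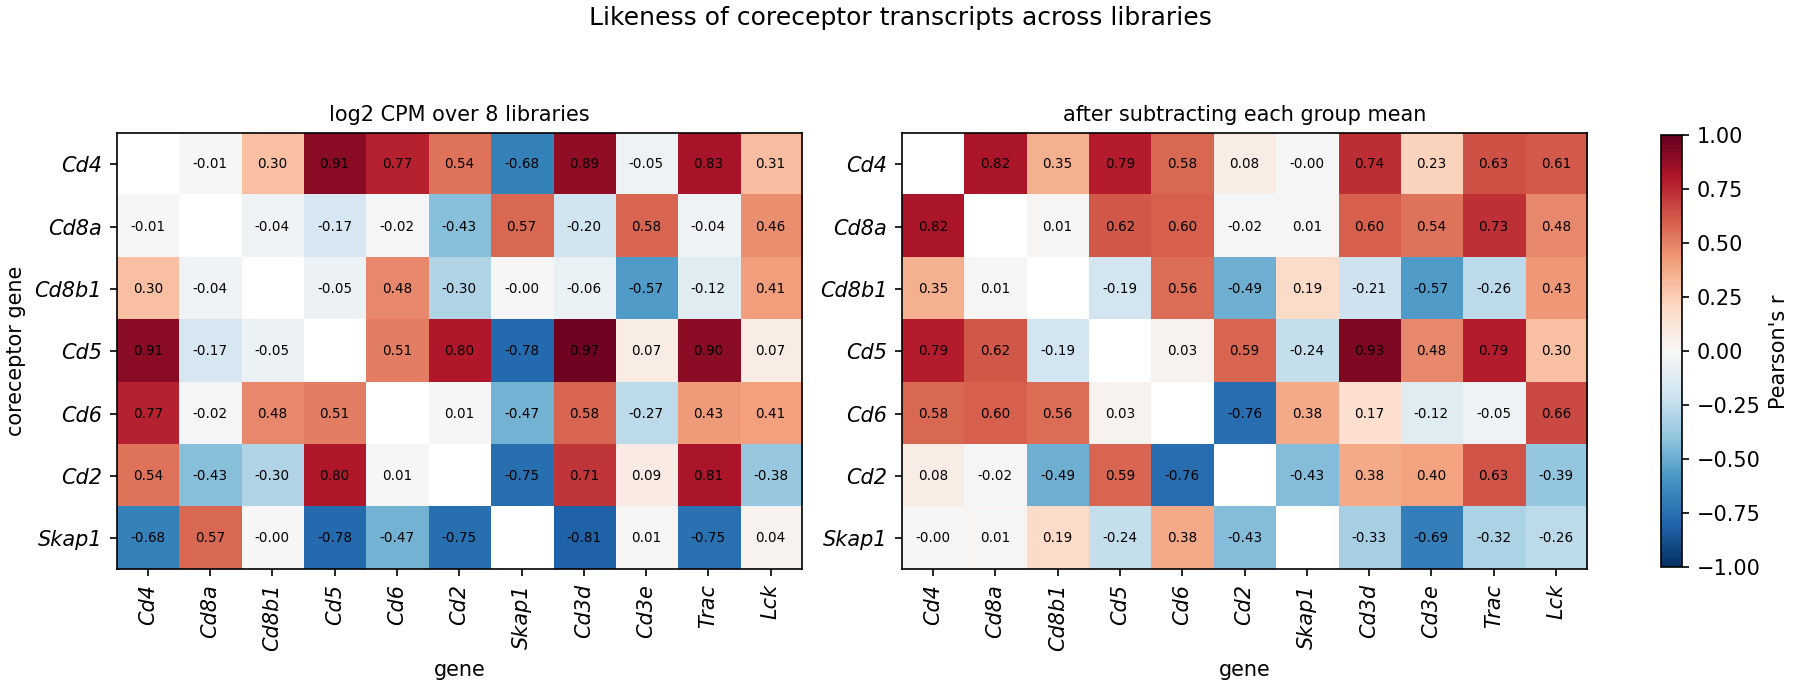
Pearson's r between each coreceptor gene (rows) and the coreceptor, CD3, Trac and Lck genes (columns) on log2 CPM over 8 libraries (left) and after subtracting each group's mean (right). Cd4 and Cd8a have r of -0.01 on the left and 0.82 on the right, and Cd5 with Cd3d has 0.97 and 0.93.

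The genes most like each member were sought among 3586 others with a mean of at least 50 CPM. For Cd5 they were Tnfrsf4 (r = 0.98), Cd3d (r = 0.97) and Nfkbia (r = 0.96), and within groups Cd27 (0.97), Tnfrsf4 (0.96) and Zfp36l1 (0.95). For Cd4 they were Gadd45b, Trappc6b and Zfp36, with r of 0.95 to 0.92. For Cd8a they were Gbp7, Mbd2 and Gm5526, with r of 0.96 to 0.94, and within groups Gbp7, Glipr2 and Xab2. For Cd2 they were Ogfrl1, Furin and Rogdi (r of 0.98 to 0.95), and for Cd6 Tnfrsf1a, Mapkapk3 and Gbp8 (r of 0.94 for each). For Skap1 they were Pabpc1, Mrpl3 and Fam192a (r of 0.95 to 0.94), and for Cd8b1 Gm10155, Lasp1 and Gga1 (r of 0.93 to 0.92). For Cd8b1 the rank correlation with Lasp1 was 0.45 against an r of 0.93. As the highest of 3586 over 8 libraries, all these r values are high by selection, and no link between genes was tested. Among the members, Cd5 alone had Cd3d among its closest genes. Cd3e and Cd3g averaged under the 50 CPM cut over all libraries, so they were not ranked for any member.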

How the data were processed

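Per the labels' protocols, libraries followed bulk MARS-seq, which reads 3′ ends with unique molecular identifiers. STAR 2.7.3a, HTSeq, DESeq2 1.26.0, DESeq, cutadapt, bcl2fastq 2.20.0.422 and GRCm39 stand in the submitters' processing notes, with no roles. The deposited table holds raw counts per Ensembl gene; collapsing of identifiers, strand and pooling of mice are not given there, so a p-value reflects only how much these samples vary, part of which may be technical. The deposited normalized table was not used. Symbols matched 10788 of 10825 IDs in an annotation of GRCm38 (the other 37 held 0.186% of counts).

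Counts were fitted with edgeR 4.0.16 in R 4.3.3: filterByExpr (6156 genes, 94.9% of counts), TMM factors and the robust, 2-sided quasi-likelihood test, with p adjusted by Benjamini-Hochberg at 0.05. CPM is the count per 1e6 counts of the tested genes; log2 CPM used a prior count of 2. Likeness genes were the 3 with the highest r; list genes were named by smallest p, plus a fixed set of markers. The members and lists were chosen with earlier results of these data known. Alternatives used DESeq2 1.42.0, limma 3.58.1 (voom), other scaling and filters, a replicate block and each library left out. The fit was tested on simulated data. All pairs of libraries differed by more than counting error (chi-square over its degrees of freedom 2.60 to 4.21). Promoters came from RefSeq, GRCm38.p6, and no coordinate was carried between builds. The genes most like Cd4 within groups are not reported here.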

Additional observations from a re-analysis of the deposited data

Results flagged for a closer look

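Cd4 in PBS replicate 1, at 97.4 CPM, lay far above the other 3 PBS libraries, with a gap of 0.862 of the group's range, past Dixon's 95% limit for 4 samples. Cd8b1 in PBS replicate 3, at 18.0 CPM, lay far below the other 3, with a gap of 0.921 of the range, and rests on 6 counts. In all 34 groups of 4 were examined in this way, and chance alone flags about 1 in 20 groups.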

How the results depend on the processing

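The edgeR count of 2 called genes became 7 with no scaling factors, 8 with no filter on low counts, 15 with DESeq2 (of 3410 genes it adjusted) and 6 with the replicate block, and ran from 0 to 15 with 1 library left out (0 when DRQ replicate 3 was out, 6 for PBS replicate 3, 15 for PBS replicate 4 and 7 for DRQ replicate 4). Over the 12 companion lists the count of 1 became 2 with DESeq2 and ran from 0 to 2 with 1 library left out. Under the 15 alternatives 0 members and 0 genes of the T cell receptor, partner and other T cell lists passed; DESeq2 gave no adjusted p for Cd8a and Cd8b1, for 3 T cell receptor and CD3 genes and for 4 partners, so these could not pass there, and the filter dropped Lcp2 without DRQ replicate 4 and Icos without DRQ replicate 2. Member fold changes kept their sign in all 15 except Cd8b1, which had the opposite sign in 11 and lay between -0.25 and 0.20. With 1 library left out, Cd4 ran from 0.72 to 1.50, Cd8a from -0.92 to -0.40, Cd5 from 0.76 to 1.36, Cd6 from 0.42 to 0.75, Cd2 from 0.16 to 0.30 and Skap1 from -0.56 to -0.46. Under the constant-gene denominator the ratio difference was -0.70 for Cd8a against -1.22 with the CD3 chains, and 1.07 for Cd5 against 0.54; the cause was not tested. Against the CD3 chains, with 1 library left out, the difference ran from 0.28 to 0.75 for Cd4, -1.49 to -1.07 for Cd8a, -0.93 to -0.01 for Cd8b1, 0.44 to 0.64 for Cd5 and -0.24 to 0.51 for Cd6. Cd4 with Cd8a had rho of 0.24 in place of r of -0.01, and r of -0.25 without PBS replicate 1; Cd8a with Cd8b1 had r of -0.27 without it. Same-numbered libraries deviated together at r of only -0.05 to 0.10 over 3706 genes, and the numbers were not taken as pairs. However, 4 of 8 libraries correlated best with their own number, and whether the numbers mark pairs was not tested. With the replicate block Cd4 stood at 1.04. Depth limits Cd4, Cd8a, Cd8b1, Cd5 and Cd6, at 6 to 69 counts per library.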
